A study of Mus musculus with 10 samples.

Results

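The genes described here are 40 markers of blood and lymphatic endothelial cells (ECs), taken by name from a table of 27267 genes measured by RNA-seq in interscapular brown adipose tissue (iBAT). The names fall into 7 lists: 16 pan-endothelial surface and junction genes, 6 endothelial transcription factors, 4 arterial genes, 3 capillary genes, 4 tip cell and apelin genes, 4 venous and large vessel genes, and 3 lymphatic genes. All 40 were found in the table, and 39 had a mean of at least 10 normalized counts over the libraries and were tested. The tip cell gene *Esm1* was the exception. The tissue came from 5 wild-type mice and 5 mice labelled *Mgp*-KO, all C57BL/6 males of 4 weeks on standard chow. *Mgp* encodes matrix Gla protein, an inhibitor of bone morphogenetic proteins, and the deletion is global, so that endothelium and adipocytes carry it alike. The comparison asks how the vascular transcripts of brown fat differ when MGP is missing.

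Blood vessels are lined by ECs that share a set of junction proteins, receptors and transcription factors and that differ along the vascular tree. Arterial ECs carry ephrin-B2 and gap junction connexins, venous ECs carry the ephrin receptor EphB4, and capillary ECs make up the exchange surface. Tip cells lead new sprouts and secrete apelin and angiopoietin-2, and lymphatic ECs are set apart by the transcription factor PROX1. Brown fat is densely supplied with capillaries, which deliver oxygen and fatty acids for heat production.

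The libraries stood apart in ways that touch these genes. Replicates 1 to 3 of both groups held 19616366 to 22252260 reads on genes, and replicates 4 and 5 held 9253793 to 13281873, with 0.771% to 1.72% and 6.50% to 16.7% of the reads on mitochondrial ribosomal RNA. The normalized count of *Mgp* was 576, 489, 466, 1146 and 839 across wild type 1 to 5, while *Mgp*-KO 1 to 5 had 0, 0.765, 0.821, 500.2 and 331. The reads of the targeted gene thus go against the labels of *Mgp*-KO 4 and 5, and the group is called the labelled *Mgp*-KO libraries. *Xist* stood at 5094 normalized counts in wild type 2, against at most 44.0 in the other 9 libraries, which goes against its male label. Each comparison was made on the 10 libraries together, then with the set (replicates 1 to 3 or 4 and 5) as a term, within each set, and without *Mgp*-KO 4, in which 30 of the 39 tested members had their highest value. That share was 76.9% for the members and 25.8% for all 13714 tested genes.

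In wild-type iBAT the endothelial transcripts spanned a wide range of levels per length, given here as normalized counts per kb of merged exons (SD, n = 5). *Aqp1*, the water channel of capillary endothelium and of red blood cells, was the highest with 3911 ± 1283. It was followed by *Cdh5*, which encodes VE-cadherin, with 1349 ± 220.0, and by the tight junction gene *Cldn5* with 715 ± 543, the sphingosine-1-phosphate receptor gene *S1pr1* with 656 ± 355 and *Pecam1*, which encodes CD31, with 483 ± 126. The ranges of *Aqp1* and *Cdh5* did not overlap, and each of the other 38 pairs of neighbours in the order overlapped. The arterial genes *Efnb2* and *Gja4* stood at 75.0 ± 13.0 and 47.6 ± 4.99 per kb, the venous gene *Ephb4* at 241 ± 41.0, and the large vessel gene *Vwf* at 26.3 ± 12.7. The lymphatic markers were low, with 16.9 ± 8.72 for *Lyve1*, 10.8 ± 2.85 for *Pdpn* and 1.26 ± 0.565 for *Prox1*. The defining endothelial markers were therefore present in every library, whereas *Prox1* rested on 3 to 17 reads per wild-type library.

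**Figure D1:**
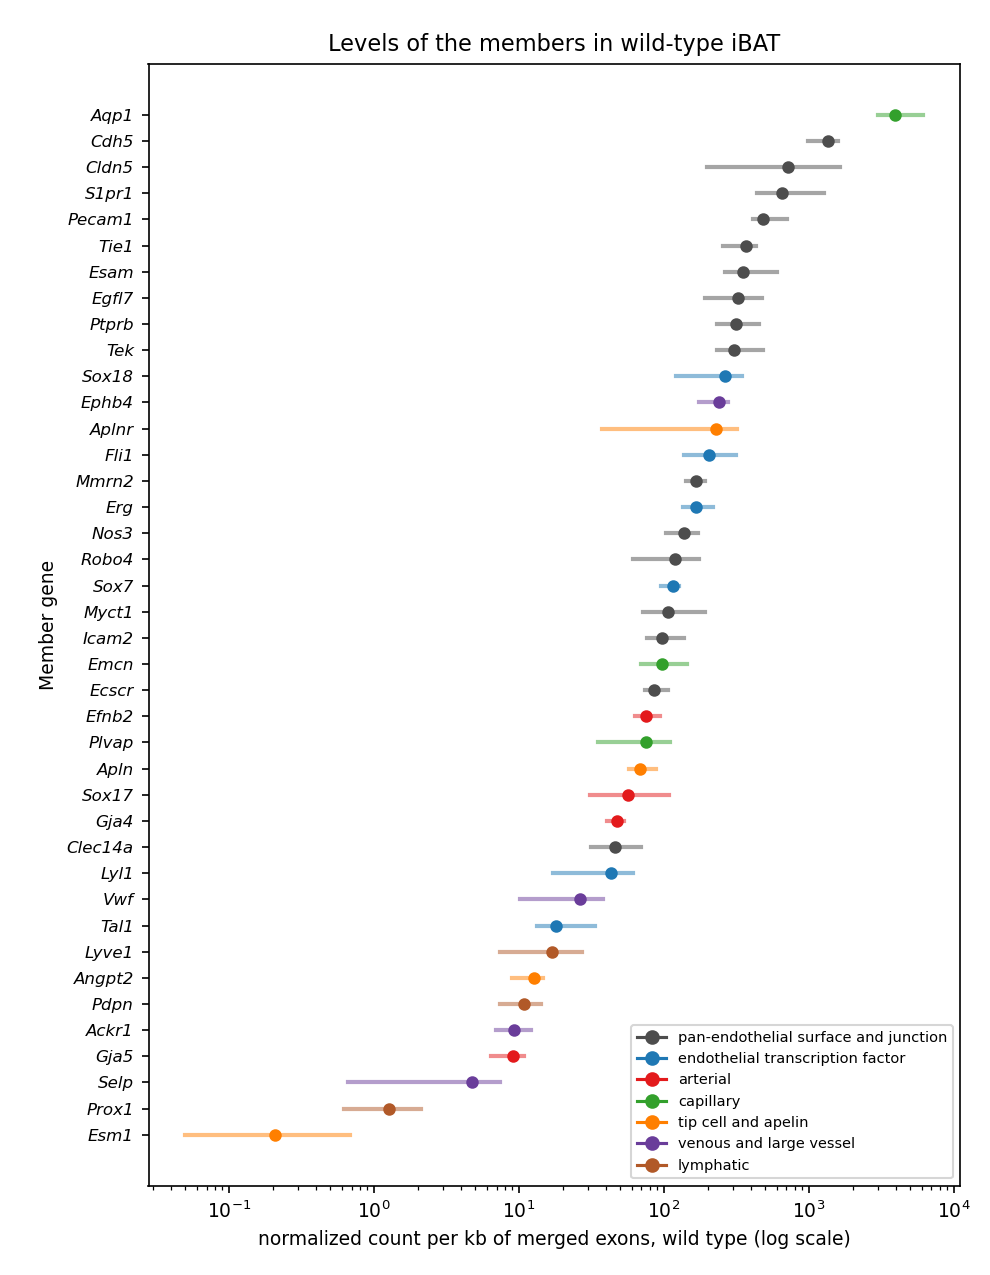
Normalized counts per kb of merged exons of the 40 members in the 5 wild-type libraries, on a log axis. Points are means and lines run from the lowest to the highest library, the line of Esm1 being cut at the left because its lowest value is 0; Aqp1 is alone at the top with 3911 and Prox1 and Esm1 are at the bottom.

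Over all 10 libraries 36 of the 39 tested members (92.3%) had a positive log2 fold change between the labelled *Mgp*-KO and the wild-type libraries, against 52.7% of all tested genes. The median was 0.44 for the members and 0.03 for all tested genes, on the scale of log2(normalized count + 1). Without *Mgp*-KO 4 the median of the members was 0.21, and 29 of the 39 were positive. In bulk tissue, fewer or more cells of a type and less or more RNA per cell cannot be told apart. In limma 0 of the 39 members passed an adjusted p of 0.05 over all 10 libraries, where 0.00729% of all tested genes passed as higher and 0.0583% as lower. At an unadjusted p under 0.05 there were 6 members higher (*Tie1*, *Fli1*, *Sox18*, *Lyl1*, *Gja4* and *Angpt2*) and 1 lower (*Apln*). The shares of all tested genes at this threshold were 4.67% higher and 5.69% lower. EdgeR on the recovered reads also called 0 members, with 0.0219% of all genes called in either direction. DESeq2 on the same reads called *Gja4* higher and *Apln* lower, with 0.997% and 1.26% of all genes called in these directions.

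With a term for the set, 1 member passed in limma, *Apln*, which fell, and 0 passed as higher, against 1.54% of all genes lower and 0.824% higher. At an unadjusted p under 0.05 there were 10 members higher and 1 lower in this fit, against 9.26% and 10.1% of all genes. DESeq2 with the same term called *Gja4* and *Sox18* higher and *Apln* lower, against 3.5% and 3.91% of all genes. In 3 tested members the 5 labelled *Mgp*-KO libraries and the 5 wild-type libraries did not overlap at all. These were *Sox18* and *Angpt2*, which were higher, and *Apln*, which was lower, where 1.39% and 2.11% of all tested genes were separated in these directions.

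**Figure D2:**
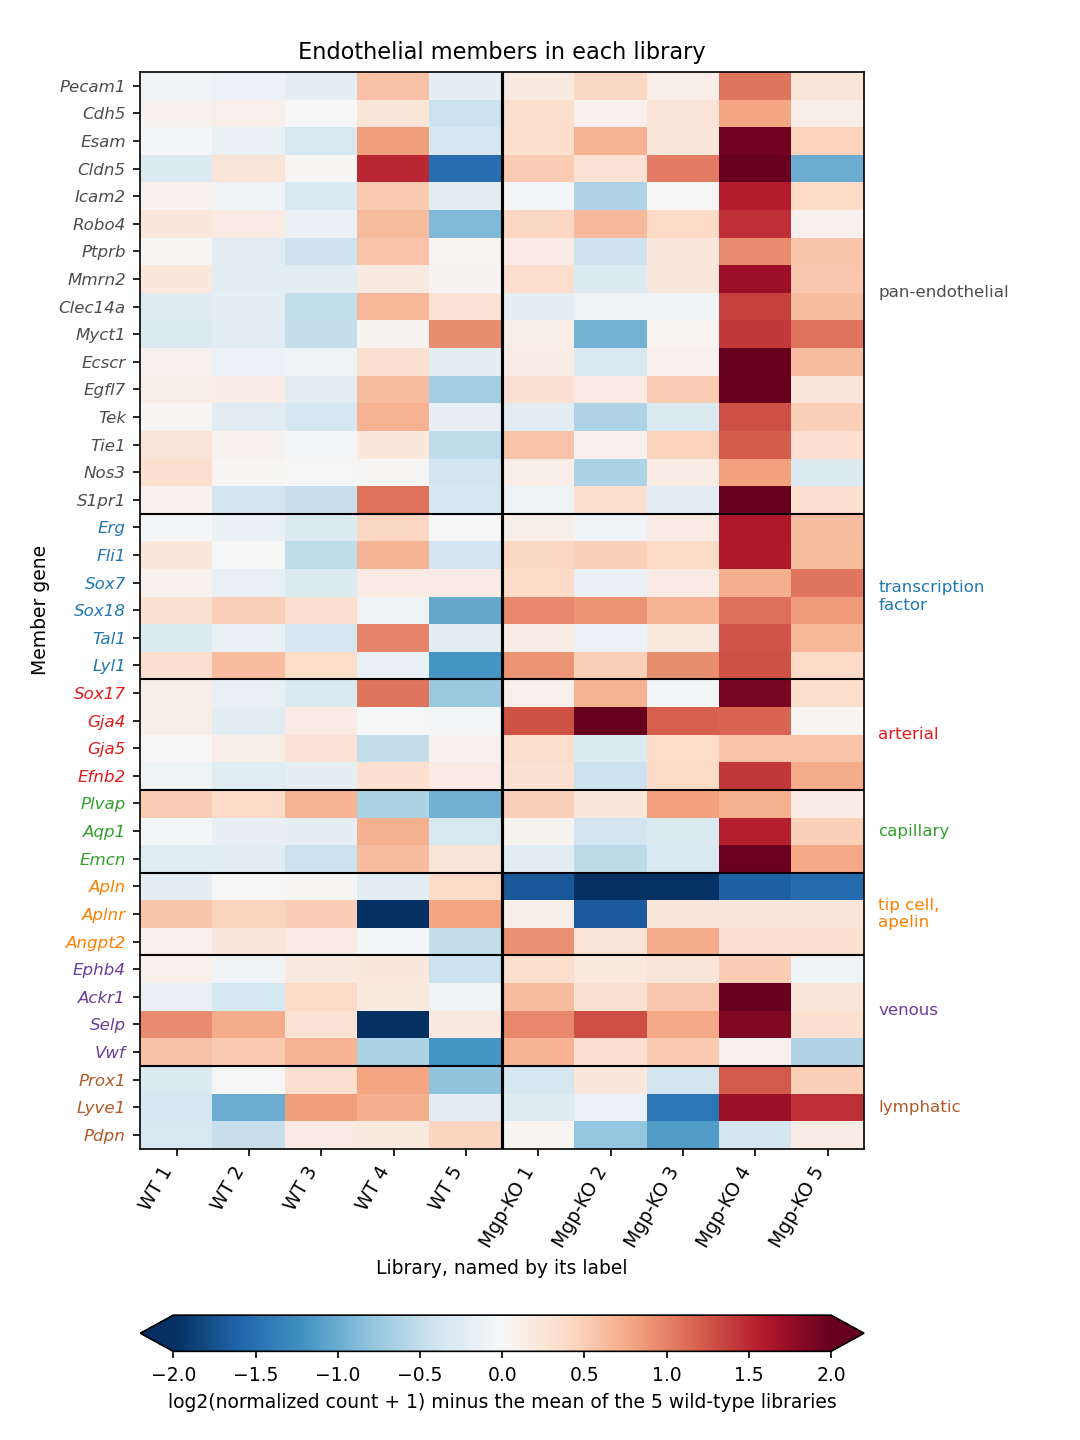
Log2(normalized count + 1) of the 39 tested members in each of the 10 libraries, minus the mean of the 5 wild-type libraries; rows are genes grouped by list, columns are libraries, and the colour scale is cut at -2 and 2. Mgp-KO 4 is the highest library in 30 rows, and Apln is the row that is low in all 5 labelled Mgp-KO libraries.

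Among the pan-endothelial genes, all 16 had a positive log2 fold change, from 0.03 for *Nos3* to 0.73 for *Esam*, with a median of 0.46. The median was 0.17 without *Mgp*-KO 4 and 13 of the 16 were positive, with *Icam2* at -0.06, *Tek* at -0.17 and *Nos3* at -0.16. None passed in limma over all 10 libraries or with the set term, where 1 and 2 of the 16 were higher at an unadjusted p under 0.05, against 4.67% and 9.26% of all tested genes. *Pecam1*, the adhesion molecule CD31 of endothelial contacts, had normalized counts of 2759, 2714, 2606, 4408 and 2558 in wild-type mice 1 to 5 and 3343, 3924, 3242, 6169 and 3485 in the labelled *Mgp*-KO libraries. Wild type 4 lay above 4 of the 5 labelled *Mgp*-KO libraries and the other wild-type libraries lay below all of them. The means were 3009 ± 786 and 4032 ± 1222 (SD, n = 5), a 1.34-fold difference (log2 fold change 0.41 ± 0.23, SE, limma adjusted p = 0.583). Without *Mgp*-KO 4 the log2 fold change of *Pecam1* was 0.25.

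*Cdh5*, the cadherin that holds ECs together, had normalized counts of 5897, 6030.4, 5617, 6647 and 4160.0 in wild type and 7168, 5938, 6695, 9699.7 and 6125 in the labelled *Mgp*-KO libraries. The groups overlapped, and the log2 fold change was 0.32 ± 0.21 (SE, limma adjusted p = 0.627), or 0.21 without *Mgp*-KO 4. The junction gene *Esam*, an adhesion molecule of endothelial tight junctions, had the largest log2 fold change of the list in limma, with 1013 ± 401 in wild type and 1781 ± 1060.5 in the labelled *Mgp*-KO libraries (SD, n = 5, limma adjusted p = 0.482). Its log2 fold change of 0.73 was 0.44 without *Mgp*-KO 4. With the replicate block, an alternative to the main fit, its adjusted p from limma was 0.0478. *Cldn5*, claudin 5 of the tight junction, varied widely within the groups, from 282 in wild type 5 to 2307 in wild type 4, and from 409 in *Mgp*-KO 5 to 5589.6 in *Mgp*-KO 4.

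The angiopoietin receptor gene *Tek* and its relative *Tie1* belong to the same signalling unit. *Tie1* had means of 1809 ± 349 and 2668 ± 865 (SD, n = 5) and a log2 fold change of 0.53 ± 0.23 (SE, limma adjusted p = 0.463), and *Tek* 1438 ± 472 and 1706 ± 1013, with 0.12 ± 0.35 (SE, limma adjusted p = 0.937). The normalized counts of *Tek* were 1406, 1199, 1096, 2259 and 1232 in wild type and 1191, 899.6, 1132, 3382 and 1927 with the *Mgp*-KO label, and the groups overlapped. *Ptprb*, the phosphatase VE-PTP that acts on both TEK and VE-cadherin, had 0.29. Endothelial nitric oxide synthase, encoded by *Nos3*, was nearest to equal, with 565 ± 99.3 and 606 ± 238 (SD, n = 5). Of the remaining members, *Egfl7* (a secreted endothelial protein whose gene holds the microRNA gene *Mir126a*, so that reads may be shared) had a log2 fold change of 0.65. *Robo4*, a guidance receptor of vessels, had 0.60, *S1pr1* 0.52, *Mmrn2*, the matrix protein multimerin 2, 0.51, and *Ecscr*, an endothelial surface receptor, 0.51. These were 0.31 for *Egfl7*, 0.39 for *Robo4*, 0.09 for *S1pr1*, 0.21 for *Mmrn2* and 0.14 for *Ecscr* without *Mgp*-KO 4. *Myct1*, an endothelial membrane protein, had 0.35, *Clec14a*, a lectin that binds multimerin 2, 0.34, and *Icam2*, a ligand of leukocyte integrins, 0.26. Without that library *Myct1* and *Clec14a* both had 0.08, and *Ptprb* 0.13.

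All 6 endothelial transcription factors had positive values, with a median of 0.59. None passed in limma over all 10 libraries, where 3 of the 6 were higher at an unadjusted p under 0.05, and none with the set term, where it was 5 of the 6. The shares of all tested genes higher at this threshold were 4.67% and 9.26%. *Sox18*, a SOXF factor of embryonic vessels and of the first lymphatic cells, lies on chromosome 2 from 181669836 to 181671640 on the reverse strand (GRCm38). Its normalized counts were 501, 563, 505, 381 and 197 in wild-type mice 1 to 5 and 785, 754, 649.5, 871 and 727 in the labelled *Mgp*-KO libraries. Every labelled *Mgp*-KO library was above every wild-type library, and the means were 429.6 ± 146 and 757 ± 81.0 (SD, n = 5). The log2 fold change was 0.90 ± 0.27 (SE, limma adjusted p = 0.232), with an adjusted p of 0.0681 with the set term in limma and 0.00850 with the set term in DESeq2.

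The other SOXF factor of the list, *Sox7*, had a log2 fold change of 0.44. The ETS factors *Fli1* and *Erg*, which act on most endothelial genes, had 0.70 and 0.49, and the basic helix-loop-helix factors *Lyl1* and *Tal1*, which are shared with blood cells, had 0.79 and 0.43. For *Fli1* the means were 717 ± 248 and 1179 ± 504 (SD, n = 5), and for *Lyl1* 77.7 ± 30.7 and 128 ± 32.2, with adjusted p-values of 0.423 and 0.429 from limma. Without *Mgp*-KO 4 the 6 values ranged from 0.21 to 0.85, with a median of 0.42, and all 6 stayed positive.

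All 4 arterial genes had positive values, with a median of 0.54 (0.27 without *Mgp*-KO 4), and *Gja4* had the largest positive change of all tested members. *Gja4* encodes a gap junction connexin of arterial ECs and lies on chromosome 4 from 127311421 to 127314039 on the reverse strand (GRCm38). Its normalized counts were 86.6, 68.1, 89.7, 79.2 and 77.9 in wild-type mice 1 to 5 and 194, 339.6, 184, 179.7 and 82.1 in the labelled *Mgp*-KO libraries. Of the labelled *Mgp*-KO libraries 4 were above all wild-type libraries, and *Mgp*-KO 5 lay within their range. The means were 80.3 ± 8.40 and 196 ± 92.2 (SD, n = 5), a 2.44-fold difference, with a log2 fold change of 1.15 ± 0.31 (SE, limma adjusted p = 0.200 and 0.0544 with the set term).

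Within replicates 1 to 3 *Gja4* rose by 1.50 ± 0.26 on the log2 scale (SE, limma adjusted p = 0.0313), where 1.9% of all genes passed as higher. Within replicates 4 and 5 the log2 fold change was 0.62 ± 0.50 (SE, limma adjusted p = 0.709). The difference between these values had an adjusted p of 0.527 for the interaction in limma. The 3 other arterial genes had smaller values. *Efnb2* had normalized counts of 479, 431, 449.9, 643 and 568 in wild type and 631, 379, 664, 1363 and 853 with the *Mgp*-KO label, where *Mgp*-KO 2 was the lowest of all libraries. *Sox17*, a SOXF factor that specifies arteries, had 0.60, *Efnb2*, the ligand ephrin-B2, 0.49, and *Gja5*, a second arterial connexin, 0.32, with adjusted p-values of 0.648, 0.603 and 0.698 from limma. Leaving out *Mgp*-KO 4 gave 0.28, 0.25 and 0.25, and 1.14 for *Gja4*.

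The apelin ligand gene *Apln* had the largest change of all tested members and was lower. Apelin is a secreted peptide of sprouting ECs, and *Apln* lies on chromosome X from 48025146 to 48034853 on the reverse strand (GRCm38). Which cells of the bulk tissue gave its reads was not tested. Its normalized counts were 186, 212, 216, 182 and 277 in wild-type mice 1 to 5 and 64.8, 6.88, 53.4, 68.0 and 72.7 in the labelled *Mgp*-KO libraries, the latter from 9 to 86 reads. Every labelled *Mgp*-KO library was below every wild-type library, and *Mgp*-KO 2 was lower by far than the other 4. The means were 215 ± 38.0 and 53.1 ± 26.8 (SD, n = 5), or 4.04-fold lower.

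The log2 fold change of *Apln* was -2.32 ± 0.54 (SE), with an adjusted p of 0.119 in limma over all 10 libraries and 0.0399 with the set term. Its value was -2.75 for replicates 1 to 3 (limma adjusted p = 0.0873) and -1.66 within replicates 4 and 5 (limma adjusted p = 0.679), so that *Apln* was low also in the libraries labelled *Mgp*-KO 4 and 5 that hold *Mgp* reads. Without *Mgp*-KO 4 and with the set term it was -2.40 (limma adjusted p = 0.0397), where 2.69% of all genes passed as lower and 2.25% as higher. *Apln* was the only member to pass in that fit. Without *Mgp*-KO 4 and with no set term, 0 members passed in limma against 0.284% of all genes higher and 0.394% lower. At an unadjusted p under 0.05 there were 3 members higher and 1 lower, against 6.27% and 6.34% of all genes. DESeq2 called *Apln* lower with adjusted p-values of 0.00135 without and 7.56e-05 with the set term.

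The 250 bases before the RefSeq start sites of the genes with the largest changes in each direction are shown because no other tested members had log2 fold changes as large. Both windows are read from RefSeq on GRCm38.p6, 5′ to 3′ on the reverse strand, *Apln* from chrX:48034854-48035103 and *Gja4* from chr4:127314040-127314289. Capitals mark a match to an ETS motif, CAGGAAG or CCGGAAG on either strand. The *Apln* window holds 1 match, CAGGAAG on the strand opposite to the gene, and the *Gja4* window holds none.

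Apln: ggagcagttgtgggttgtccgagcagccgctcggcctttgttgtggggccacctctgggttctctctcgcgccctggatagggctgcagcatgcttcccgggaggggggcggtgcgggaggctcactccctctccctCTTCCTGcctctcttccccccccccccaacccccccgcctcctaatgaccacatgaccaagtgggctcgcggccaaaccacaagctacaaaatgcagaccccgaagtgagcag

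Gja4: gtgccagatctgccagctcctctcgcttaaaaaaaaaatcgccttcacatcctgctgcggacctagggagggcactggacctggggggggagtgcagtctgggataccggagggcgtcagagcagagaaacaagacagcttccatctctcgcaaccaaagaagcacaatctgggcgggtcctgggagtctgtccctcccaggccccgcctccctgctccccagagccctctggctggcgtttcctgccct

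Among the 40 members 22 had an entry in the RefSeq promoter table, with 28 windows of 250 bases before to 50 bases after a start. The ETS letters CAGGAAG or CCGGAAG were found on either strand in 28.6% of these windows and in 20.9% of all 32851 windows of the table. The SOX letters AACAAT were found in 10.7% of both, and the GATA letters AGATAA in 17.9% and 11.2%. Of the 3 windows of *Erg* 1 held all 3 motifs. A match of letters is no binding site, and with 8, 3 and 5 windows these shares rest on few genes.

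*Aplnr* encodes the apelin receptor of venous and capillary ECs. Its normalized counts were 1004, 937, 967, 139 and 1180.2 in wild type and 745, 214, 810.5, 793 and 810.1 in the labelled *Mgp*-KO libraries. Wild type 4 and *Mgp*-KO 2 were far below the rest, and the other 4 labelled *Mgp*-KO libraries were below the other 4 wild-type libraries. *Aplnr* had a log2 fold change of -0.17 ± 0.58 (SE, limma adjusted p = 0.952). Without wild type 4 it was -0.74 and without *Mgp*-KO 2 it was 0.21. Within replicates 1 to 3 *Aplnr* and *Apln* were both lower without overlap. Replicates 1 to 3 gave -0.94 and replicates 4 and 5 gave 0.98, the largest difference between the sets among the members (1.92, adjusted p = 0.519 for the interaction in limma).

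*Angpt2*, the angiopoietin of activated and sprouting ECs, lies on chromosome 8 from 18690263 to 18741562 on the reverse strand (GRCm38). Its normalized counts were 49.4, 53.9, 51.5, 45.4 and 32.9 in wild type and 87.4, 55.8, 77.2, 58.3 and 57.4 in the labelled *Mgp*-KO libraries. The groups did not overlap, although *Mgp*-KO 2 exceeded wild type 2 by little. The log2 fold change was 0.52 ± 0.23 (SE, limma adjusted p = 0.475), with 0.48 and 0.57 within the sets and 0.56 without *Mgp*-KO 4. The tip cell gene *Esm1*, which encodes endocan, had 2, 0, 1, 0 and 0 reads in wild type and 3, 4, 7, 6 and 2 reads in the labelled *Mgp*-KO libraries. Its values of 0 to 1.43 and 2.26 to 9.71 normalized counts did not overlap, but most lay under or near the floor of 3 reads (2.15 to 5.19 normalized counts), and no fold change is given.

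**Figure D3:**
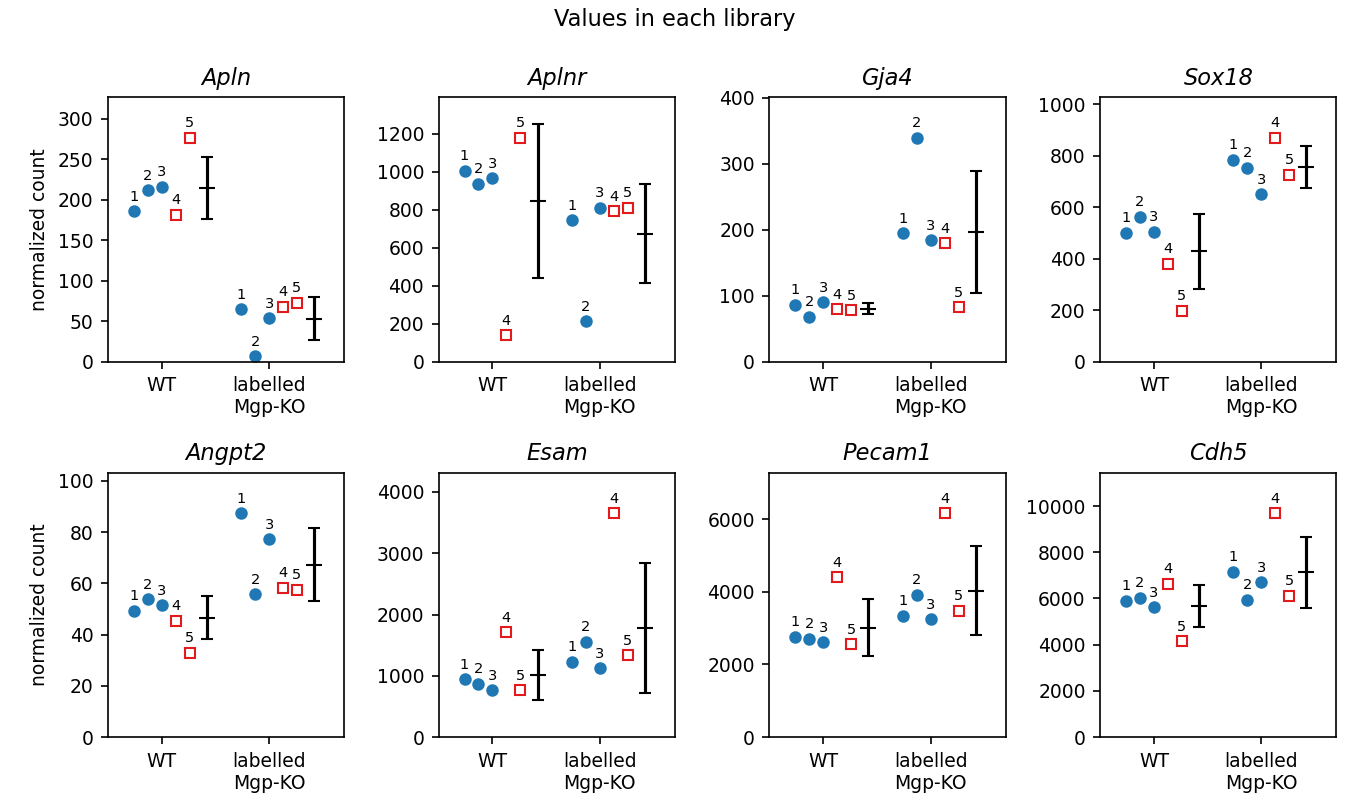
Normalized counts of 8 members in each library, with filled circles for replicates 1 to 3 and open squares for replicates 4 and 5, the replicate number above each point, and bars for mean and SD of the 5 libraries; each axis starts at 0. Apln, Sox18 and Angpt2 are separated between the groups, whereas Gja4 overlaps through Mgp-KO 5 and Aplnr has a low library in each group.

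The capillary genes *Plvap*, *Aqp1* and *Emcn* had log2 fold changes of 0.48, 0.29 and 0.34 (limma adjusted p = 0.655, 0.834 and 0.834). *Plvap* builds the diaphragms of fenestrated capillaries, and *Emcn* encodes endomucin of capillaries and veins. Within replicates 1 to 3 the 3 values were between -0.07 and -0.02, and within replicates 4 and 5 between 0.83 and 1.23. They were 0.42, -0.03 and -0.07 without *Mgp*-KO 4. For *Aqp1* the normalized counts of the labelled *Mgp*-KO libraries were 10343, 7700.1, 8152, 29259 and 13761, against 10275 ± 3371 in wild type (SD, n = 5). *Mgp*-KO 4 was the highest of all libraries and *Mgp*-KO 2 the lowest.

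The venous and large vessel genes had a median of 0.54 (0.33 without *Mgp*-KO 4), and none passed in limma, at an unadjusted p under 0.05 either. *Ephb4*, the venous receptor for ephrin-B2, had normalized counts of 1187, 1056, 1253, 1279.6 and 815 in wild type and 1404, 1263, 1301, 1560.5 and 1038 in the labelled *Mgp*-KO libraries, with overlap through *Mgp*-KO 5 and 2 (log2 fold change 0.24, limma adjusted p = 0.697). Its log2 fold change was 0.13 to 0.32 with each library left out. *Selp*, which encodes P-selectin of venules and platelets, and *Ackr1*, the chemokine-binding receptor of venules and red blood cells, were low and had 1.04 and 0.85 (limma adjusted p = 0.566 and 0.563). *Selp*, with 2 reads in wild type 4, had 0.50 to 1.27 with each library left out. *Ackr1* stood at 77.7 in *Mgp*-KO 4 and between 15.2 and 20.3 in the other labelled *Mgp*-KO libraries, against 9.73 to 16.9 in wild type. Without *Mgp*-KO 4 its log2 fold change was 0.43. *Vwf*, the von Willebrand factor gene, had 0.21 (limma adjusted p = 0.895). This value was -0.08 within replicates 1 to 3 and -0.08 to 0.41 with each library left out.

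Of the lymphatic genes, *Prox1*, *Lyve1* and *Pdpn* had log2 fold changes of 0.24, 0.28 and -0.41, with adjusted p-values of 0.899, 0.910 and 0.750 from limma. *Prox1* and *Lyve1* were at -0.01 and -0.09 without *Mgp*-KO 4, and at -0.17 and -0.43 within replicates 1 to 3. *Lyve1*, the hyaluronan receptor that some macrophages share, had 34.3, 21.7, 79.4, 73.3 and 38.1 in wild type and 36.9, 40.5, 15.6, 149 and 123 in the labelled *Mgp*-KO libraries. *Pdpn*, podoplanin, which fibroblasts also express, was between 13.5 and 26.0 in wild type and between 8.21 and 21.1 in the labelled *Mgp*-KO libraries. At 9 to 29 reads of *Pdpn* and 3 to 17 reads of *Prox1* per library, both genes rest on few reads in every library.

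Log2 ratios of 3 pairs of genes, taken within a library from normalized counts + 1 and chosen with earlier results known, were tested by two-sided exact permutation tests over the libraries. The log2 ratio of *Apln* to *Aplnr* was -1.69 ± 1.16 in wild type and -3.83 ± 0.55 in the labelled *Mgp*-KO libraries (SD, n = 5), a difference of -2.15. The groups did not overlap (exact permutation p = 0.00794, the lowest value possible with 5 against 5, and 0.0238 after adjustment over the 3 ratios). With permutation only within the sets the exact p was 0.0167, the lowest value possible there, and 0.05 after adjustment, which is not under the threshold. With sign changes of same-numbered libraries the exact p was 0.0625, again the lowest possible. The difference was -1.82 in replicates 1 to 3 and -2.64 in replicates 4 and 5, sets in which the smallest exact p is 0.1 and 0.333. *Aplnr* was at its lowest in wild type 4, where the ratio was 0.38, against -2.43 to -2.09 in the other wild-type libraries.

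The log2 ratio of *Efnb2* to *Ephb4*, the arterial ligand and its venous receptor, was -1.12 ± 0.38 and -0.87 ± 0.64 (SD, n = 5; exact permutation p = 0.468). That of *Angpt2* to *Tek* was -4.89 ± 0.51 and -4.49 ± 0.91 (SD, n = 5; exact permutation p = 0.421). Both differences, 0.25 and 0.39, were within the spread of the libraries, and both had 0.468 after adjustment over the 3 ratios. For *Angpt2* to *Tek* the difference was 0.68 in replicates 1 to 3 and -0.04 in replicates 4 and 5. Within replicates 1 to 3 the groups did not overlap (exact permutation p = 0.1, the lowest value possible there).

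Members were also set against the mean of the other pan-endothelial genes of the same library, as values without a test. *Apln* was lower on this scale as well, with a difference of -2.75, and was the only member whose groups did not overlap. *Pdpn* followed with a difference of -0.85 and *Aplnr* with -0.60, and *Gja4*, *Selp* and *Sox18* stood at the other end with 0.71, 0.61 and 0.47. For replicates 1 to 3 and for replicates 4 and 5 these values were 1.30 and -0.17 for *Gja4*, 0.15 and 1.29 for *Selp* (which had 2 reads in wild type 4), and -1.13 and 0.19 for *Aplnr*. In wild type, *Icam2*, *Pecam1* and *Aqp1* kept closest to the pan-endothelial genes of their library, with SDs of 0.07, 0.09 and 0.10 over 5 libraries, and *Aplnr*, *Selp* and *Vwf* least, with 1.60, 1.53 and 0.96. The medians of the lists ranged from -0.60 for the 3 tested tip cell and apelin genes to 0.16 for the 6 transcription factors.

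Within replicates 1 to 3 the median log2 fold change of the 39 members was 0.21, and 27 were positive. *Gja4* was the 1 member that passed as higher in limma and 0 passed as lower, where 1.65% of all genes did. The groups did not overlap in 12 members that were higher (*Pecam1*, *Esam*, *Cldn5*, *Robo4*, *Clec14a*, *Egfl7*, *Fli1*, *Sox18*, *Tal1*, *Gja4*, *Angpt2* and *Ephb4*) and in 2 that were lower (*Apln* and *Aplnr*). Among all tested genes 15.5% were separated as higher and 15.1% as lower within these libraries. Within replicates 4 and 5 the median was 0.86 and 37 members were positive, against 51.5% of all tested genes. In limma 0 members passed, as did 0% of all genes, and 5 were higher and 1 lower at an unadjusted p under 0.05, against 2.96% and 3.27% of all genes.

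The value within replicates 4 and 5 exceeded that within replicates 1 to 3 in 37 of the 39 members, the exceptions being *Gja4* and *Pdpn*, and in 49.0% of all tested genes. Replicates 4 and 5 hold 2 labelled *Mgp*-KO libraries, among them *Mgp*-KO 4, the highest library in 30 of the 39 members. This set was not fitted without *Mgp*-KO 4. The interaction passed in 0 members in limma, with 5 at an unadjusted p under 0.05 (*Ecscr*, *Sox18*, *Lyl1*, *Plvap* and *Emcn*, each with the larger value in replicates 4 and 5), and 0.00729% of all genes passed. At the unadjusted threshold 5.04% of all genes had the larger value in replicates 4 and 5 and 5.31% the smaller. Between the sets, with genotype in the limma model, 10 members were higher in replicates 4 and 5 than in replicates 1 to 3 and 2 were lower, against 18.3% and 19.9% of all genes. The higher ones were *Ptprb*, *Clec14a*, *Myct1*, *Tek*, *Erg*, *Sox7*, *Tal1*, *Efnb2*, *Emcn* and *Lyve1*, and the lower ones *Plvap* and *Vwf*. *Emcn* differed by 1.23 on the log2 scale (limma adjusted p = 0.00358) and *Vwf* by -1.14 (limma adjusted p = 0.00149).

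**Figure D4:**
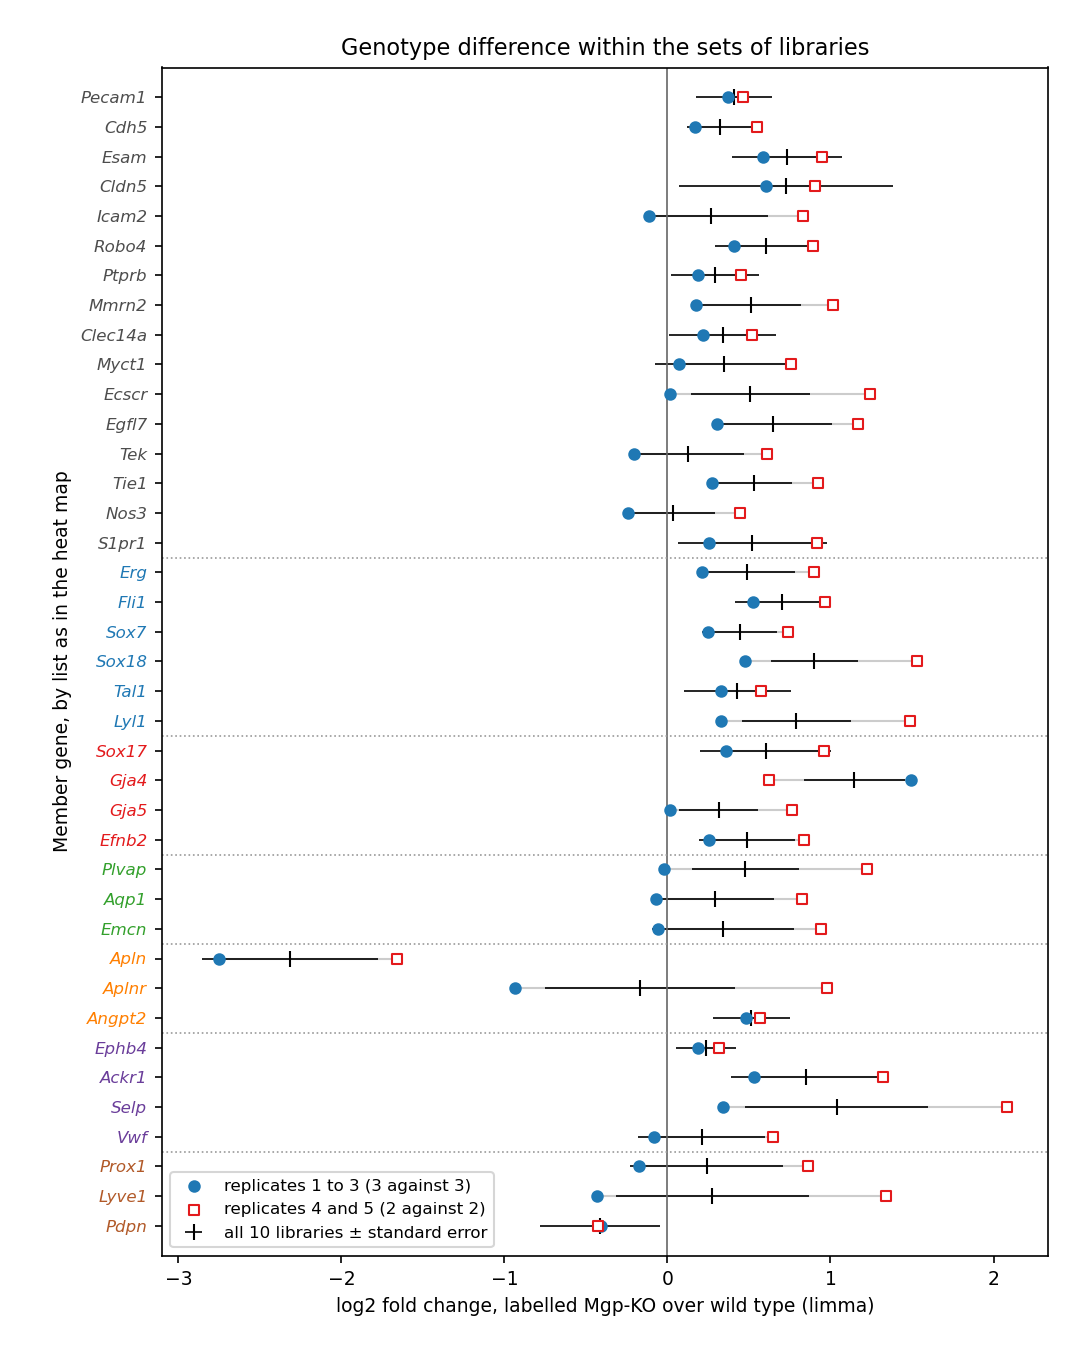
Log2 fold change of each tested member between the labelled Mgp-KO and the wild-type libraries, within replicates 1 to 3 (filled circles), within replicates 4 and 5 (open squares) and over all 10 libraries (bars, with the standard error from limma). The open squares lie to the right of the circles in 37 of 39 rows, and Apln lies far to the left in both sets. Mgp-KO 4, the highest library in 30 of these rows, is among the libraries behind the open squares.

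Markers of other cell types moved with the library labelled *Mgp*-KO 4 and with the groups. The summed normalized count of the 16 pan-endothelial genes was 19076 to 34364 in wild type, 60838 in *Mgp*-KO 4 and 24292 to 28613 in the other 4 labelled *Mgp*-KO libraries. In the same library the sum of 9 erythroid genes was 101767, against 6487 to 20029.5 in wild type and 3022 to 26461 in the other labelled *Mgp*-KO libraries. That of 8 platelet and megakaryocyte genes was 374 against 126 to 204 in all other libraries, where the platelet genes *Gp9*, *Gp1ba*, *Gp6* and *Treml1* were at 0 in at least 1 library. For 8 lymphocyte genes the sum was 179.7 in *Mgp*-KO 4 and 31.4 to 101.8 in all other libraries. The sum of 10 brown adipocyte genes was 80127 in *Mgp*-KO 4, 161248 to 210220 in the other labelled *Mgp*-KO libraries and 205420 to 259778 in wild type, with overlap. On the log2 scale the mean deviation of these genes from the wild-type mean was -1.57 to -0.49 in the labelled *Mgp*-KO libraries and -0.21 to 0.25 in wild type, without overlap. With the set term 2 of the 10 fell in limma (1.54% of all genes did), the thermogenic genes *Ucp1* (log2 fold change -2.70, adjusted p = 0.0127) and *Dio2* (log2 fold change -3.35, adjusted p = 0.0228). The median log2 fold change of the 10 was -0.39, and the mean deviation without *Ucp1* and *Dio2* was not computed. For 10 fibroblast and progenitor genes, of which 2 had a positive log2 fold change and none passed in limma, the mean deviation was -1.0 to -0.08 and -0.28 to 0.35. DESeq2 with the set term called 1 of them higher, *Dcn*, against 3.5% of all genes. *Mgp*-KO 4 also had the fewest reads on genes (9253793) and the largest share on mitochondrial ribosomal RNA (16.7%, against at most 8.57% elsewhere). The part of these shifts in the endothelial values was not tested. Without *Mgp*-KO 4 the mean deviation of the pan-endothelial genes from the wild-type mean was between -0.07 and 0.30 in the labelled *Mgp*-KO libraries and between -0.29 and 0.55 in wild type, where wild type 4 had the 0.55 and the next library 0.04. Among these 9 libraries wild type 4 had the highest value in 14 of the 39 members (35.9%), against 15.3% of all tested genes.

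The mean deviation of the 4 arterial genes was 0.43 to 1.26 in the labelled *Mgp*-KO libraries, 0.43 to 0.52 without *Mgp*-KO 4, and -0.14 to 0.23 in wild type, without overlap. Without *Gja4*, a choice made after seeing the data, the values were 0.00 to 1.29 and -0.17 to 0.31, which overlap. In *Mgp*-KO 2 *Gja4* deviated by 2.07, *Sox17* by 0.70, *Gja5* by -0.28 and *Efnb2* by -0.42. For the transcription factors the deviation was 0.25 to 1.26 and -0.44 to 0.34. The sums of 10 pericyte and smooth muscle genes (11351 to 16254 in the labelled *Mgp*-KO libraries and 11612 to 17749.6 in wild type) and of 10 macrophage genes (1968 to 2391 and 1511 to 2714) overlapped, and *Mgp*-KO 4 was not the highest in either. Skeletal muscle genes summed to 39045 in *Mgp*-KO 2 and 36709.8 in *Mgp*-KO 5 and to at most 6761 elsewhere, and their part in the values of these libraries was not tested.

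**Figure D5:**
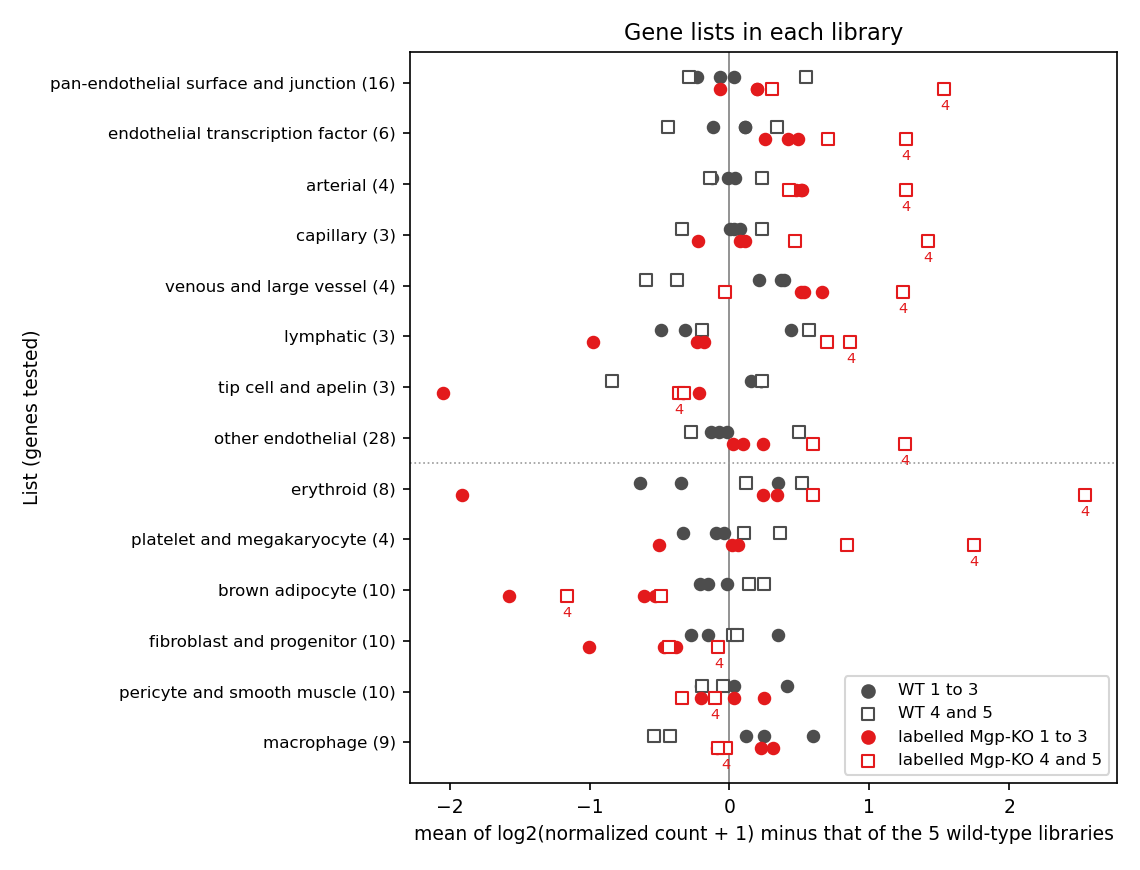
Mean log2(normalized count + 1) of each list in each library minus that of the 5 wild-type libraries, with the number of genes tested in brackets; grey marks are wild type, red marks labelled Mgp-KO, squares replicates 4 and 5, and the number 4 marks Mgp-KO 4. That library is far to the right in the pan-endothelial, erythroid and platelet lists. The brown adipocyte list, with large falls of Ucp1 and Dio2, and the arterial list through Gja4 are separated between the groups.

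Of 28 other endothelial genes, 0 passed in limma over all 10 libraries and 0 with the set term. At an unadjusted p under 0.05 there were 7 higher and 0 lower, against 4.67% and 5.69% of all tested genes, and 11 and 0 with the set term, against 9.26% and 10.1%. DESeq2 called 1 of them higher (*Dll4*, a Notch ligand of arteries and tip cells), against 0.997% of all genes, and with the set term 4 (*Dll4*, *Flt4*, *Nr2f2* and *Calcrl*), against 3.5%. EdgeR called 0 of them, with 8 higher and 0 lower at an unadjusted p under 0.05, against 823 higher and 746 lower of all 13714 tested genes. Their median log2 fold change was 0.45, and 0.20 without *Mgp*-KO 4. *Kdr* and *Flt1*, the receptors of vascular endothelial growth factor, had means of 4593 ± 805 and 3507 ± 1543 in wild type and 6775 ± 3398 and 5817 ± 3673 in the labelled *Mgp*-KO libraries (SD, n = 5). Their log2 fold changes were 0.43 and 0.63 (limma adjusted p = 0.681 and 0.603), and 0.19 and 0.32 without *Mgp*-KO 4. Within replicates 1 to 3, *Gpihbp1*, the capillary anchor of lipoprotein lipase, rose by 0.65 on the log2 scale (limma adjusted p = 0.0492) and was the 1 gene of the 28 to pass, where 1.9% of all genes passed as higher. Its normalized counts there were 1653, 1438 and 1541 in wild type and 2501, 2764 and 2064 in the labelled *Mgp*-KO libraries.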

How the data were processed

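RNA of iBAT from 5 wild-type and 5 labelled *Mgp*-KO mice was sequenced by the authors as single reads of 50 bases, mapped to mm10 with STAR and counted on genes. The annotation release and strand setting are not given in the sources used here, and 10 members share exon bases with another gene. The deposited values are a signal per gene, the normalized count, made by the authors by dividing the counts of each library by a DESeq2 size factor. In every library 100% of values gave whole reads within a tolerance of 0.1, so the reads were recovered (9253793 to 22252260 per library). Floors of 3 reads cover counting error only.

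The main test was limma 3.58.1 in R 4.3.3 (eBayes with trend) on log2(normalized count + 1). It had no block and covered 13714 genes whose mean reached 10 normalized counts, with Benjamini-Hochberg adjustment over all of them and a threshold of 0.05. A fold change on this scale understates the change of low genes. EdgeR 4.0.16 and DESeq2 1.42.0 on the recovered reads, other pseudocounts, filters and scalings, the replicate block, the set term, single sets and each library left out were alternatives. In simulated counts of 13714 genes, of which 200 had a log2 change of 2, limma over all 10 libraries recovered 66.5% where the sets differed, and 89% with the set term, where 4 of 182 calls were false. DESeq2 with the set term, on which the call of *Sox18* rests, recovered 93.5% with 34 false calls of 221. Of the tested members only *Apln* had a change as large as the planted one over all 10 libraries, and no outlying library was simulated. The shares recovered do not apply to smaller changes.

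All members are reported. Values in every library are given for *Pecam1*, *Cdh5*, *Mgp*, members past the threshold over all libraries or with the set term, members without overlap, members of the 3 ratios and the member with the largest difference between the sets. Other lists are named only for genes past a threshold, and for *Kdr* and *Flt1*. *Aqp1*, *Gja4* and *Lyve1* were also given by library, wholly or in part, after their values were seen. The members and lists were chosen with earlier results of these data known. Coordinates and lengths come from GENCODE on GRCm38.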

Additional observations from a re-analysis of the deposited data

Results flagged for a closer look

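In groups of 5 libraries, the gap between an extreme library and its nearest neighbour, divided by the range of the group on the log2 scale, was compared with Dixon's 95% limit of 0.71 for the 39 tested members and the 3 ratios. Of 84 groups 15 exceeded it, where chance gives about 1 in 20 for independent groups. The groups share the same libraries and are not independent, so the count cannot be weighed against that share. Wild type 4 accounted for 7 of them. It was the highest wild-type library for *Pecam1* (0.861), *Esam* (0.730), *Tal1* (0.864) and *Aqp1* (0.717), the lowest for *Aplnr* (0.892, at 139 normalized counts) and *Selp* (0.756, at 2.93 normalized counts from 2 reads), and the highest for the log2 ratio of *Apln* to *Aplnr* (0.879).

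The library labelled *Mgp*-KO 4 was the highest of its group by this measure for *Esam* (0.725), *Egfl7* (0.816), *S1pr1* (0.771), *Fli1* (0.795) and *Ackr1* (0.827). *Mgp*-KO 2 was the lowest for *Gja5* (0.746), *Apln* (0.864, at 6.88 normalized counts) and *Aplnr* (0.937, at 214). This library also had the largest sum of skeletal muscle genes, 39045 against 36709.8 in *Mgp*-KO 5. No other library exceeded the limit.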

How the results depend on the processing

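The count of members called higher, 0 in limma over all 10 libraries, became 1 in DESeq2, 1 in edgeR with the set term, 1 within replicates 1 to 3 and 1 without *Mgp*-KO 4 and 5 with a set term (*Gja4* in each), and 2 in DESeq2 with the set term (*Gja4* and *Sox18*). With the replicate block it was 1, *Esam* (adjusted p = 0.0478), and 1 lower, *Apln* (adjusted p = 0.0397), where 0.671% of all genes passed as higher and 1.3% as lower, and 17 members were higher at an unadjusted p under 0.05 (9.53% of all genes) against 6 without the block. Of the 28 other endothelial genes the block called 2 higher, *Gpihbp1* and *Dll4*. The study speaks of pairs of mice, but no source used here ties the replicate numbers to them. The numbers were not taken as pairs, since the correlations of deviations of same-numbered libraries were 0.527, 0.0559, 0.327, 0.523 and 0.514, 1 of them under 0.1, and 5 of the 10 libraries correlated best with their own number. These values cannot settle whether the numbers mark pairs, so results with the block are given as well. By number, 17 members were higher and 1 lower in the labelled *Mgp*-KO library of all 5 pairs, as were 8.95% and 9.94% of all genes. The count of members called lower, also 0, became 1 (*Apln*) in DESeq2, in DESeq2, edgeR and limma with the set term, without *Mgp*-KO replicate 4 with the set term, and without *Mgp*-KO replicate 2. The shares of all genes higher and lower were 0.926% and 1.56% in edgeR with the set term, 1.03% and 0.904% without *Mgp*-KO 4 and 5, and 0.0146% and 0.051% without *Mgp*-KO 2. With each library left out it was 0 for members called higher and between 0 and 1 for members called lower. *Apln* had adjusted p-values from 7.56e-05 to 0.679 over 26 alternatives and passed in 7, *Gja4* 0.00134 to 0.709 and passed in 5. The median log2 fold change of the members, 0.44, moved to 0.86 within replicates 4 and 5, and was between 0.21 (without *Mgp*-KO 4) and 0.56 with each library left out. Under the other pseudocounts, filters and scalings the same number of members was called as over all 10 libraries. A member changed sign in 34 of 1010 values, none of them past the threshold, in 10 members, most often within replicates 1 to 3 (9), without *Mgp*-KO 4 and 5 with the set term (9) and without *Mgp*-KO 4 (7). Without adjustment, the differences of the 3 log2 ratios kept their side of the threshold under each alternative that could pass it. With each library left out they were 0.08 to 0.47 for *Efnb2* to *Ephb4*, 0.21 to 0.73 for *Angpt2* to *Tek* and -2.33 to -1.63 for *Apln* to *Aplnr*. That of *Angpt2* to *Tek* changed sign within replicates 4 and 5 (-0.04). *Prox1*, *Pdpn* and *Esm1* rest on few reads in both sets.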
